A study of Rattus norvegicus with 28 samples.

Results

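Psilocybin at 3 mg/kg was compared with vehicle by RNA sequencing of prefrontal cortex from outbred Sprague-Dawley rats, all adult males, taken 24 h after injection. The members were chosen by their treatment labels alone and are 8 of the 28 libraries of the study, 4 given psilocybin and 4 given vehicle. Every rat, 8 weeks old on arrival, first had an intraperitoneal injection of 5% Tween-80, which in other groups carried ketanserin. Rats of the vehicle group then had saline, and those of the psilocybin group had psilocybin at 3 mg/kg in saline. Rats given psilocybin at 1 mg/kg after Tween-80, rats given ketanserin at 3 mg/kg and then psilocybin at 3 mg/kg, and rats given ketanserin at 3 mg/kg and then saline, serve below only to show where the higher dose alone differs. Each group holds 4 biological replicates per the labels. The sources used here do not say whether a library stands for 1 animal, so p-values rest on the spread between samples. That spread was estimated within the groups of all 28 libraries, not from these 8 alone. Replicate numbers only name libraries.

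The body dephosphorylates psilocybin to psilocin, which activates several serotonin receptors. Its acute behavioural effects run largely through the serotonin 2A receptor, a receptor coupled to Gq proteins that cortical pyramidal neurons carry most densely in deep layers. Gq activates phospholipase C, which releases calcium from internal stores. Neuronal excitation switches on immediate early genes such as Fos, Junb and Arc within minutes, and their transcripts usually decay within hours. A sample taken on the next day therefore shows what differs after the acute phase, such as synaptic, glial or metabolic transcripts.

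At this time no gene passed the test between the groups. Of 17404 genes tested, edgeR's quasi-likelihood test with Benjamini-Hochberg adjustment called 0, which is 0.0% of them, and the smallest adjusted p was 0.997. DESeq2 also called 0. At an unadjusted p under 0.05 there were 522 genes, or 3.0%, of which 216 (1.24%) were higher and 306 (1.76%) lower after psilocybin. The 4 psilocybin libraries all lay above the 4 vehicle libraries for 164 genes (0.942%) and all below them for 204 (1.17%). The fold change was above 0 for 47.8% of all tested genes, with a median log2 fold change of -0.01. These percentages are the background for every count of genes given below. For the 15159 genes with a mean of at least 1 CPM (a count scaled to a common library size), the median half-width of the 95% interval of the log2 fold change was 0.43. That interval is not adjusted for the number of genes, so the adjusted test needs larger differences. A fit of these 8 libraries alone called 1 gene, Fam111a.

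The libraries held 13903996 to 17453274 counts. The leading principal component, PC1, carried 27.5% of the variance over the 28 libraries, and the groups overlapped on it. Replicate 1 of the psilocybin group (PC1 72.0) and replicate 2 of the vehicle group (54.3) lay apart from the other 6 libraries (-29.6 to 11.3). The same libraries had the lowest scaling factors (0.905 and 0.924) and the largest shares of mitochondrial counts (11.1 and 10.3%). In both, long genes were lower than in the other libraries, with a Spearman correlation across the 17404 genes of -0.323 and -0.297 between gene length and the deviation from the mean. In the other vehicle libraries that correlation was 0.226, 0.190 and -0.068, and in the other psilocybin libraries -0.104, -0.032 and -0.021. For some lists, not all, the medians without single libraries are also given.

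The tissue carried the markers of cortex. Slc17a7, the vesicular glutamate transporter of cortical excitatory neurons, was at 809 ± 106 FPKM in vehicle (SD, n = 4), and FPKM is a level per length of transcript. Fezf2, a transcription factor of deep layer neurons, was at 34.0 ± 7.38 FPKM. Markers of neighbouring tissue were low in all 8 libraries. Ttr, which choroid plexus makes in great amounts, reached 2.14 FPKM at most, the striatal dopamine receptor Drd1 3.45, and the olfactory bulb transcription factors Tbx21 and Eomes 0.254 and 0.213.

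The clearest differences towards higher levels were small. C2cd4c (ENSRNOG00000008026, chromosome 7, 12974169 to 12976330 on rn6) encodes a protein with a C2 domain, a module that in many proteins binds calcium and lipid. It was at 33.9, 29.4, 33.8 and 31.7 CPM in the vehicle libraries and at 43.5, 49.0, 46.8 and 49.4 CPM after psilocybin. All psilocybin libraries lay above all vehicle libraries. C2cd4c had a log2 fold change of 0.55 (SE 0.128, 95% interval 0.29 to 0.81) with an unadjusted p of 0.000206 and an edgeR adjusted p of 0.997, and it was 0.52 to 0.58 when any library was left out.

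Hpcal1 (ENSRNOG00000005492, chromosome 6, 43001948 to 43109071), a calcium sensor of the hippocalcin family, was at 40.2, 51.1, 39.5 and 45.9 CPM in vehicle and at 77.7, 66.0, 79.1 and 65.9 CPM after psilocybin. The gap between the groups was wider than the spread within either of them. This was a log2 fold change of 0.71 (SE 0.237). Palmd (ENSRNOG00000058609, chromosome 2, 220481616 to 220535751) encodes palmdelphin, a cytosolic relative of the paralemmins that line plasma membranes. It was at 15.0, 17.4, 15.7 and 17.2 CPM in vehicle and at 19.7, 20.6, 20.5 and 20.8 CPM after psilocybin, with no overlap and a log2 fold change of 0.32 (SE 0.103).

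The other genes of this kind spanned a range of levels. The rule took the 12 genes with a symbol, a mean of at least 2 CPM and no overlap that had the smallest p, so their values describe them and test nothing. Klhdc8b, a protein of kelch repeats, had a log2 fold change of 0.37 at 49.9 ± 5.24 CPM in vehicle and 64.6 ± 7.62 after psilocybin. Pgm3, an enzyme that makes the sugar nucleotide for protein glycosylation, was at 10.2 ± 0.648 and 12.9 ± 1.62 CPM (0.35). Rsph9, a radial spoke protein of motile cilia, was at 9.76 ± 1.83 and 16.6 ± 1.91 CPM (0.77). Several encode secreted or surface proteins. Il16, a cytokine that attracts cells with CD4, had a log2 fold change of 0.86, Gpc3, a heparan sulfate proteoglycan, 0.95, and Mgam, a starch-digesting enzyme of the gut, 1.44. Fank1 was at 1.61 ± 0.244 CPM in vehicle and 2.88 ± 0.555 after psilocybin (0.83). Rmnd5b, a ubiquitin ligase subunit whose symbol has 2 gene records and which lies beside Nhp2, was at 0.338 to 0.617 CPM in vehicle and 0.852 to 6.12 after psilocybin, so reads shared between records are uncertain.

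Among the genes that were lower, Syt12 (ENSRNOG00000019306, chromosome 1, 219688451 to 219719272) led by p. It encodes a synaptotagmin of synaptic vesicles. Syt12 was at 82.9, 80.0, 74.9 and 88.9 CPM in vehicle and at 65.7, 65.5, 64.6 and 64.4 CPM after psilocybin. The psilocybin libraries were almost level with each other and all below vehicle. Syt12 had a log2 fold change of -0.33 (SE 0.0801, with the 95% interval -0.49 to -0.16), with an unadjusted p of 0.000371 and an edgeR adjusted p of 0.997.

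Il17ra (ENSRNOG00000011153, chromosome 4, 152995865 to 153018394), a subunit of the receptors for cytokines of the interleukin-17 family, was at 42.8, 39.7, 45.0 and 45.2 CPM in vehicle and at 30.4, 24.7, 31.3 and 33.0 CPM after psilocybin. No libraries overlapped, and the log2 fold change was -0.53 (SE 0.146). Rassf5, an effector of Ras proteins, was at 102, 72.2, 74.3 and 89.1 CPM in vehicle and at 64.3, 71.5, 55.7 and 47.4 CPM after psilocybin. Its highest psilocybin library lay just under its lowest vehicle library, and the log2 fold change was -0.50 (SE 0.149).

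Other lower genes with no overlap spanned membrane lipid, signalling and adhesion roles. Abca7, a lipid transporter, was at 70.6 ± 6.96 CPM in vehicle and 55.1 ± 5.85 after psilocybin (log2 fold change -0.36). Pamr1, a secreted protein with a peptidase-like domain, was at 50.7 ± 5.64 and 39.5 ± 4.14 CPM (-0.36), and the zinc finger gene Zfp385b at 43.5 ± 3.96 and 32.3 ± 5.13 CPM (-0.43). R3hdm1, an RNA-binding protein of higher abundance, was at 177 ± 20.7 and 146 ± 3.52 CPM (-0.28). Klhl20, a substrate adaptor of a cullin ubiquitin ligase, had a log2 fold change of -0.43, Dennd3, an activator of Rab proteins, -0.74, and Cd38, an enzyme that consumes NAD, -0.79. Serhl2, a serine hydrolase relative, was at 3.59 ± 0.468 and 1.76 ± 0.246 CPM (-1.02). Pcdhb4, a protocadherin of neuronal adhesion, was at 2.66 ± 0.453 and 1.48 ± 0.410 CPM (-0.84), and it belongs to a cluster of similar genes, so its reads are uncertain.

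**Figure D1:**
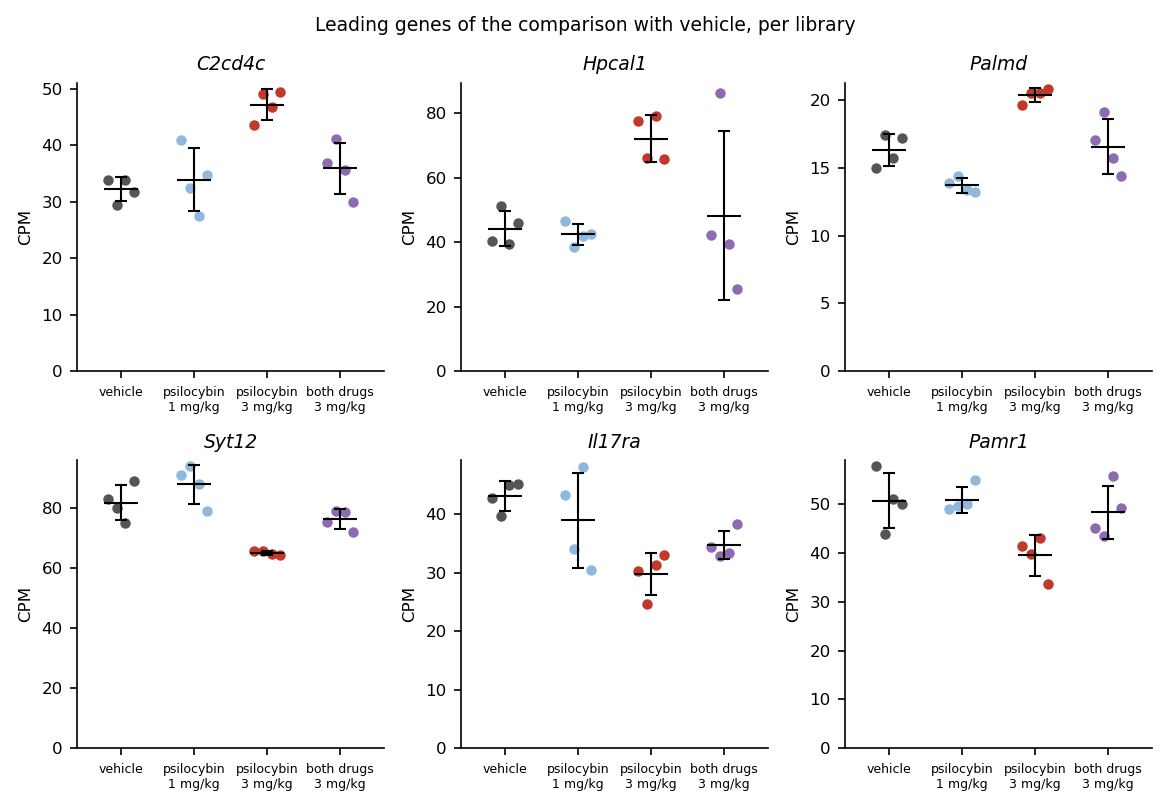
Level in CPM of 3 genes higher and 3 genes lower after psilocybin at 3 mg/kg, 1 point per library, for vehicle, psilocybin at 1 mg/kg, psilocybin at 3 mg/kg and both drugs at 3 mg/kg (bars, mean ± SD, n = 4). The 4 libraries of the higher dose lie apart from the 4 vehicle libraries in each panel, from 43.5 to 49.4 against 29.4 to 33.9 CPM for C2cd4c and from 64.4 to 65.7 against 74.9 to 88.9 CPM for Syt12.

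The largest fold changes came from genes that were near 0 in some libraries. Fam111a, which encodes a protease that acts during DNA replication, was at 0.203, 0.528, 0.743 and 0.206 CPM in vehicle and at 15.8, 14.1, 30.8 and 18.5 CPM after psilocybin. Every psilocybin library was high. The log2 fold change was 5.52 (SE 1.73; edgeR adjusted p = 0.997), and in a fit of these 8 libraries alone it was 5.51 with an adjusted p of 0.00627. At 1 mg/kg Fam111a was at 43.7 CPM in 1 library and at 0.336 to 0.686 in the other 3, so that high and low libraries occurred within a group.

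Grcc10, a small gene of a gene-dense cluster, and Ndufa1, a subunit of respiratory complex I, had log2 fold changes of 5.41 and 5.07. Each rested on 1 library. Grcc10 was at 75.3 CPM in psilocybin replicate 4 and at most 0.994 in the other 7 libraries, and Ndufa1 at 52.6 CPM in psilocybin replicate 2 and at most 0.994 elsewhere. Without these libraries the log2 fold changes were 0.38 and 0.07. In the lower direction, Sepw1, which encodes a selenoprotein, was at 56.4, 111, 271 and 324 CPM in vehicle and at 19.3, 31.6, 9.30 and 9.18 CPM after psilocybin (log2 fold change -3.45, SE 1.15). The vehicle libraries were themselves spread widely. Tmco3, a membrane protein, was at 0.396 to 10.2 CPM in vehicle and 0.213 to 0.733 after psilocybin. Vom2r44, a vomeronasal receptor of a large gene family whose reads are uncertain, was at 0.990 to 3.22 CPM in vehicle and listed at 0 in 2 of the psilocybin libraries.

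Serotonin receptors, the targets of psilocin, did not separate the groups. Of the 14 receptor genes listed, 9 could be tested. Their median log2 fold change was 0.01, with 5 above vehicle and 4 below, and 0 reached an unadjusted p under 0.05. That median was 0.23 without vehicle replicate 3 and -0.04 without psilocybin replicate 3. Without both libraries of high PC1 it was -0.15, with 3 above and 6 below. By FPKM the order in vehicle was Htr2a (7.28 ± 0.784), Htr3a (5.45 ± 1.01), Htr6 (4.49 ± 1.13), Htr1a (4.44 ± 1.87), Htr2c (3.34 ± 1.16), Htr5a (2.87 ± 1.10), Htr1b (1.89 ± 1.17), Htr1d (0.493 ± 0.216) and Htr1f (0.265 ± 0.173). Htr2a stood clear of Htr6 and of the receptors under it in mean less SD, while each of the neighbours from Htr3a to Htr1b lay within the spread of the next. Htr2b, Htr4, Htr5b and Htr7 had group means of 0.116 FPKM at most, and Htr3b was listed at 0 in all 8 libraries.

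Htr2a (ENSRNOG00000010063, chromosome 15, 56666012 to 56735382) was at 30.6, 34.8, 38.7 and 32.0 CPM in vehicle and at 37.9, 31.8, 34.9 and 32.4 CPM after psilocybin. The ranges coincided. Its log2 fold change was 0.01 with a 95% interval of -0.32 to 0.34. Htr2c was at 10.3, 20.3, 18.1 and 10.7 CPM in vehicle and at 12.1, 19.8, 22.8 and 23.1 CPM after psilocybin. Vehicle held low and high libraries, and the interval of -0.13 to 0.90 was wide. Htr1a, which inhibits pyramidal neurons, ranged from 2.18 to 7.54 CPM in vehicle and from 1.28 to 8.64 after psilocybin.

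**Figure D2:**
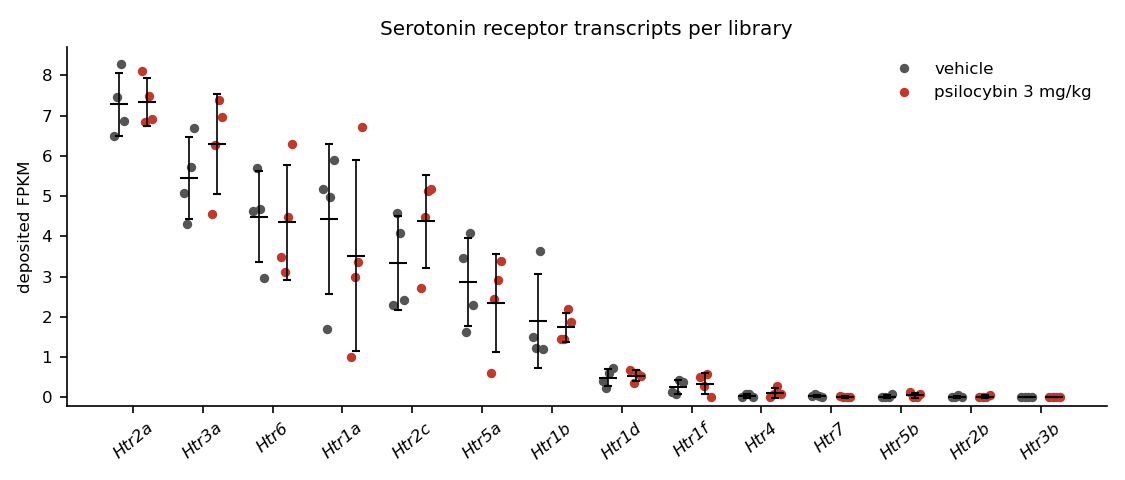
Deposited FPKM of the 14 serotonin receptor genes in each vehicle and psilocybin library, ordered by the vehicle mean (bars, mean ± SD, n = 4). Htr2a is highest at 7.28 in vehicle and 7.34 after psilocybin, and the groups overlap for each receptor.

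Downstream of the receptor, 10 of 26 genes of Gq and arrestin signalling were above vehicle and 16 below (median -0.14), and 0 reached an unadjusted p under 0.05. Without psilocybin replicate 1 that median was -0.04, without vehicle replicate 1 it was -0.06, and without vehicle replicate 3 it was -0.02. It was -0.19 without vehicle replicate 2 and -0.17 without both libraries of high PC1. Rgs4, which shortens Gq signals, was at 516 ± 71.5 CPM in vehicle and 454 ± 51.2 after psilocybin, and its relative Rgs2 at 38.0 ± 2.68 and 42.4 ± 5.83. Plcb1, a phospholipase C that Gq activates, was at 69.7 ± 25.3 and 51.7 ± 13.4 CPM, and Itpr3, a channel that releases stored calcium, at 13.5 ± 1.96 and 11.0 ± 1.51. The unadjusted edgeR p-values of these 4 genes were 0.11, 0.16, 0.17 and 0.13.

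Immediate early genes lay somewhat above vehicle. Of 33 genes 20 were higher (60.6%, against 47.8% of all genes), with a median log2 fold change of 0.16, and 2 reached an unadjusted p under 0.05 in the higher direction, where 1.24% of all genes did. The promoter sequences of 3 of the 4 leading members are shown because these genes are induced through sites that CREB and AP-1 factors bind. Each is the 250 bases before the annotated start in RefSeq's GRCr8 table, read 5′ to 3′ on the gene's strand. Capitals mark the short cAMP response element, TGACG or its reverse complement CGTCA, which is also part of the full element TGACGTCA.
Junb (chr19:40080876-40081125, plus strand): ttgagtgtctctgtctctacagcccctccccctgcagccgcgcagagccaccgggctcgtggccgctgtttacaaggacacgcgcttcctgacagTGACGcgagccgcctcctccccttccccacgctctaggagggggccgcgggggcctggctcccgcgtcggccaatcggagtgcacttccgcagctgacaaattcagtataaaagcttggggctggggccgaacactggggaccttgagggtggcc
Nr4a1 (chr7:134259888-134260137, plus strand): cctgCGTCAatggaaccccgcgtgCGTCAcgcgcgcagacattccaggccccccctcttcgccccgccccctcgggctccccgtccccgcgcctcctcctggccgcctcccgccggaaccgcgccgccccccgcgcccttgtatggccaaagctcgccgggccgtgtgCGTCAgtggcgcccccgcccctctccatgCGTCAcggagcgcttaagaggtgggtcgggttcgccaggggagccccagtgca
Fosb (chr1:88089185-88089434, minus strand): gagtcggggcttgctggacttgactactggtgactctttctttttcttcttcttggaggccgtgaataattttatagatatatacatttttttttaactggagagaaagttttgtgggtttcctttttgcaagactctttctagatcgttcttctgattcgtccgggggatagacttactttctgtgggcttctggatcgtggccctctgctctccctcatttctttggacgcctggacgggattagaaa
The Nr4a1 window holds 4 short elements, which begin 246, 226, 82 and 53 bases before the start, and the Junb window holds 1 at 155 bases. None is in the Fosb window. The full element and the AP-1 motifs TGAGTCA and TGACTCA are in none of the 3 windows. Among 33469 RefSeq promoter windows of this length, 18.2% hold the short element on either strand, 1.59% the full element and 4.05% an AP-1 motif. A match describes letters only.

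Junb (ENSRNOG00000042838, chromosome 19, 26092974 to 26094756 on rn6), a subunit of AP-1, was at 36.8, 63.9, 82.4 and 48.2 CPM in vehicle and at 123, 77.0, 98.2 and 70.1 CPM after psilocybin. The groups overlapped, since vehicle replicate 3 lay above psilocybin replicates 2 and 4. The log2 fold change was 0.67 (SE 0.248; edgeR adjusted p = 0.997), and 0.49 to 0.89 when any library was left out. Fosb (ENSRNOG00000046667, chromosome 1, 80214494 to 80221710), another AP-1 subunit, was at 7.30, 4.88, 6.13 and 5.28 CPM in vehicle and at 10.8, 9.47, 8.46 and 8.36 CPM after psilocybin. It was the only immediate early gene whose groups did not overlap (log2 fold change 0.65, SE 0.272).

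Nr4a1, an orphan nuclear receptor, was at 62.4 ± 8.71 CPM in vehicle and 80.9 ± 11.5 after psilocybin (0.37, SE 0.199). Arc, whose protein acts at synapses on AMPA receptors, was at 25.0, 46.7, 89.3 and 35.9 CPM in vehicle and at 103, 58.7, 123 and 52.0 CPM after psilocybin. Vehicle replicate 3 lay among the psilocybin libraries. The log2 fold change of 0.77 had an SE of 0.445, and it was 1.23 without that replicate. Egr2, Maff, Egr4 and Csrnp1, also transcription factors, had log2 fold changes of 0.68, 0.65, 0.34 and 0.34, with unadjusted p-values of 0.213, 0.277, 0.110 and 0.137 by edgeR. The best known members lay near vehicle or below it. Fos was at 7.78 ± 4.20 and 8.95 ± 4.13 CPM, Egr1 at 135 ± 13.1 and 136 ± 16.2, and Npas4 at 12.4 ± 4.64 and 11.7 ± 2.23. Egr3 was at 48.6 ± 17.4 CPM in vehicle and 37.7 ± 12.4 after psilocybin (-0.36, SE 0.311).

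Summed over the 33 genes the level was 1177, 1397, 1334 and 1186 CPM in vehicle and 1701, 1284, 1482 and 1296 after psilocybin. Replicate 1, the library with the highest PC1, was the highest. Without it the median log2 fold change of the list was 0.03, with 18 of 33 above 0, without psilocybin replicate 3 it was 0.07, without vehicle replicate 1 it was 0.08, and without both libraries with high PC1 it was 0.16. At 1 mg/kg the median against vehicle was also 0.16, with 27 members above, and both doses share the vehicle libraries. The part of library composition in this list was not tested.

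**Figure D3:**
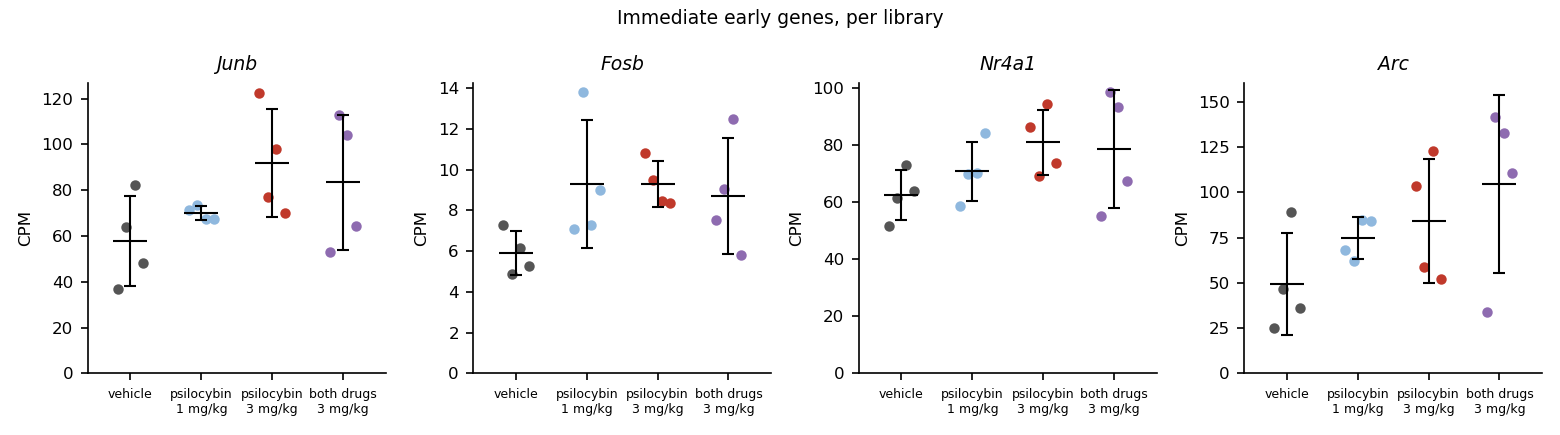
Level in CPM of Junb, Fosb, Nr4a1 and Arc, 1 point per library, in vehicle, psilocybin at 1 mg/kg, psilocybin at 3 mg/kg and both drugs at 3 mg/kg (bars, mean ± SD, n = 4). Of the 4 genes only Fosb shows no overlap between vehicle (4.88 to 7.30) and psilocybin at 3 mg/kg (8.36 to 10.8).

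Genes of the later activity response did not follow. Of 20 late activity and neurotrophin genes 6 were above vehicle and 14 below (median -0.06). Nptxr, a receptor for the neuronal pentraxins that gather AMPA receptors, was at 2097, 2436, 1950 and 2249 CPM in vehicle and at 2420, 2518, 2590 and 2547 after psilocybin. Only vehicle replicate 2 reached the psilocybin range (0.21, SE 0.110). Ntf3, a neurotrophin, was at 3.54 ± 0.742 and 5.00 ± 1.48 CPM, Homer1, a scaffold with a short form that activity induces, at 21.0 ± 11.7 and 13.9 ± 5.23, and Scg2, a secretory granule protein, at 142 ± 11.3 and 131 ± 11.5.

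Glutamate receptors gave small values of both signs. Of 19 AMPA and kainate receptor genes 7 were higher (median -0.05), of 7 NMDA receptor genes 4 (0.09), and of 7 metabotropic receptor genes 2 (-0.05). Cacng8, an auxiliary subunit of AMPA receptors, was at 115, 156, 107 and 110 CPM in vehicle and at 177, 131, 140 and 138 after psilocybin. Vehicle replicate 2 and psilocybin replicate 1 were the high libraries, and the groups overlapped (0.26, SE 0.118). Grik2, a kainate receptor subunit, was at 34.1 ± 4.95 and 39.3 ± 1.01 CPM, Grin2c at 144 ± 17.7 and 156 ± 6.07, and Grm8 at 16.9 ± 1.77 and 19.5 ± 3.19. Grin2a, an NMDA receptor subunit of the mature cortex, ranged from 5.87 to 33.0 CPM in vehicle alone (-0.64, SE 0.663), and the value was 0.07 without vehicle replicate 3.

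Synaptic genes lay more often below vehicle than above it, by amounts that depended on which libraries were kept. Of 28 postsynaptic scaffold genes 20 were below (median -0.13), and 0 reached an unadjusted p under 0.05. That median was -0.02 without psilocybin replicate 1, -0.06 without vehicle replicate 3 and -0.25 without vehicle replicate 2, and without vehicle replicate 1 the list was split 14 to 14. Dlg4, the scaffold PSD-95, was at 1174 ± 180 CPM in vehicle and 1349 ± 216 after psilocybin, Dlgap3 at 686 ± 157 and 795 ± 226, Homer3 at 17.7 ± 2.90 and 20.9 ± 2.35, and Kalrn, an exchange factor that shapes dendritic spines, at 343 ± 104 and 275 ± 70.2. Of 51 presynaptic genes 34 were below vehicle (median -0.07), and 4 of these reached an unadjusted p under 0.05, against 1.76% of all genes. They were Syt12, given above, Syt2, Slc17a6 and Vamp1. Without psilocybin replicate 1 the presynaptic list was split, with 26 higher and 25 lower. Without both libraries of high PC1, 19 of 28 postsynaptic genes (median -0.12) and 31 of 51 presynaptic genes (-0.04) were lower.

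Syt2, the calcium sensor of fast transmitter release, was at 14.1, 7.79, 16.4 and 17.3 CPM in vehicle and at 6.67, 7.11, 3.75 and 4.35 after psilocybin. All psilocybin libraries were below vehicle (-1.34, SE 0.505). Vamp1, a vesicle fusion protein, was at 237, 258, 238 and 309 CPM in vehicle and at 239, 241, 198 and 152 after psilocybin, with overlap in 2 libraries (-0.33, SE 0.143). Slc17a6, the vesicular glutamate transporter most abundant in thalamus, was at 11.2 ± 2.95 and 6.98 ± 1.48 CPM (-0.68, SE 0.282).

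Genes of inhibitory signalling showed a like tilt. Of 21 genes for GABA synthesis, transport and receptors 18 were below vehicle (median -0.14) and 0 reached an unadjusted p under 0.05. Without vehicle replicate 3 the median was -0.06, without vehicle replicate 1 it was -0.09, and without vehicle replicate 2 or 4 it was -0.18. Without both libraries of high PC1 it was -0.19, with 17 of 21 lower. Gad1, which makes GABA, was at 223 ± 15.8 CPM in vehicle and 205 ± 15.4 after psilocybin, and Gabbr2, a subunit of the GABA-B receptor, at 413 ± 101 and 352 ± 55.9. The interneuron markers had no common direction, with 9 of 17 higher (median 0.04). Calb1, the calcium-binding protein calbindin, was at 95.5, 75.2, 87.8 and 85.0 CPM in vehicle and at 123, 103, 104 and 94.7 after psilocybin. Only vehicle replicate 1 reached the psilocybin range (0.31, SE 0.110). Vip and Calb2, of other interneuron classes, were at 47.3 ± 1.27 and 56.8 ± 8.80 CPM and at 17.3 ± 2.84 and 22.5 ± 2.86, and Lamp5 at 265 ± 52.2 and 204 ± 70.4.

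Markers of cortical layers were mixed as well. Upper layer markers were lower in 11 of 14 genes (median -0.16). Mdga1, a surface protein that restrains synapse formation, was at 9.96 ± 3.00 CPM in vehicle and 6.92 ± 1.06 after psilocybin. The transcription factor Pou3f3 was at 83.8 ± 9.12 and 75.1 ± 1.31. Calb1 and Lamp5, given above with the interneurons, are also in this list. Calb1 was higher (0.31) and had the smallest unadjusted edgeR p of the list (0.0104), while Lamp5 was lower (-0.38). Without vehicle replicate 1 the upper layer list was split 7 to 7 (median -0.04), and without psilocybin replicate 1 and vehicle replicates 2 and 3 in turn its median was -0.08, -0.28 and -0.09. Deep layer markers were lower in 9 of 17 (median -0.09). Without the libraries of high PC1 that median was 0.17, and it turned above 0 without vehicle replicate 2 (0.12) or psilocybin replicates 2 (0.05) and 3 (0.02). Crym, a protein that binds thyroid hormone, was at 199, 341, 192 and 207 CPM in vehicle and at 394, 329, 357 and 387 after psilocybin. Vehicle replicate 2 alone lay within the psilocybin range, and the log2 fold change was 0.64 (SE 0.247; 0.89 without that replicate). Tshz2, a transcription factor, was at 62.8, 9.43, 54.3 and 54.2 CPM in vehicle and at 3.48, 19.4, 20.5 and 15.5 after psilocybin, where vehicle replicate 2 was again the exception (-1.61, SE 0.631). Etv1, a transcription factor of layer 5 neurons, was at 116 ± 16.1 and 94.5 ± 13.7 CPM (-0.29), and Ntsr1, the neurotensin receptor of layer 6 neurons, at 1.82 ± 1.11 and 4.04 ± 1.39 (1.15, SE 0.566). In bulk tissue, fewer cells of a type and less RNA per cell cannot be told apart, here or for the glial genes.

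Myelin genes were lower after psilocybin in all 29 members (median log2 fold change -0.36), from -0.76 to -0.08. Of these, 2 (Cntn2 and Adamts4) reached an unadjusted p under 0.05, against 1.76% of all genes in that direction. Their summed level was 4121, 10169, 5273 and 6934 CPM in vehicle and 4662, 3797, 3371 and 7634 after psilocybin. The groups overlapped, and both held a library far above its fellows, vehicle replicate 2 and psilocybin replicate 4. Mbp, the basic protein that compacts myelin, was at 2793 ± 1466 CPM in vehicle and 1917 ± 866 after psilocybin. Cntn2, an adhesion molecule beside the node of Ranvier, was at 72.1, 50.1, 67.5 and 72.2 CPM in vehicle and at 26.6, 56.0, 46.8 and 58.6 after psilocybin. Vehicle replicate 2 was the low exception (-0.48, SE 0.205). Adamts4, a protease that oligodendrocytes and perineuronal nets share, was at 24.3 ± 8.26 and 14.6 ± 8.78 CPM (-0.73, SE 0.315), and Ugt8, which makes the galactolipid of myelin, at 43.1 ± 13.5 and 28.2 ± 10.9 (-0.61, SE 0.300). Enpp2 was at 50.2, 48.0, 53.9 and 55.3 CPM in vehicle and at 40.3, 39.3, 40.1 and 48.6 after psilocybin (-0.30, SE 0.148).

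The size of the myelin difference depended on single libraries. Without vehicle replicate 2 the median was -0.14 with 23 of 29 members lower, without psilocybin replicate 4 it was -0.61 with all 29 lower, and without both libraries of high PC1 it was -0.07 with 20 lower. At 1 mg/kg 23 of 29 members were above vehicle (median 0.17). Between the doses all 29 were lower at 3 mg/kg (median -0.51). Of these, 10 reached an unadjusted p under 0.05, where 1.69% of all genes did in that direction. The summed level at 1 mg/kg was 4354, 9572, 10796 and 6294 CPM, a wide spread, and the doses overlapped.

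Lists of oligodendrocyte precursors, of cholesterol synthesis and of the other glia showed no such uniform sign. Oligodendrocyte precursor markers were lower in 8 of 11 genes (median -0.07) and cholesterol synthesis genes in 15 of 23 (-0.04). In both lists 0 reached an unadjusted p under 0.05. The precursor median was -0.31 without vehicle replicate 1 and 0.01 without vehicle replicate 3. Olig1, a transcription factor of the oligodendrocyte lineage, was at 138 ± 50.1 CPM in vehicle and 114 ± 17.8 after psilocybin, Gpr17, a receptor of differentiating precursors, at 12.9 ± 2.91 and 9.50 ± 5.54, and Lss, an enzyme of sterol synthesis, at 25.3 ± 5.16 and 18.1 ± 6.76. Astrocyte markers were split 9 to 9 (median -0.01), with Agt, angiotensinogen, at 97.8 ± 20.9 and 82.1 ± 21.1 CPM. Microglia markers were higher in 9 of 17 and lower in 8 (median 0.04), and 0 reached an unadjusted p under 0.05. Tyrobp, an adaptor of myeloid receptors, was at 6.97 ± 1.73 and 10.0 ± 3.63 CPM. Trem2, a receptor that signals through Tyrobp, was at 9.59 ± 1.47 and 11.9 ± 2.32. Both were named for having the smallest p of the list.

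Endothelial and mural markers were lower in 12 of 20 (median -0.05). Tie1, a receptor of endothelial cells, was at 27.0, 32.9, 27.7 and 35.6 CPM in vehicle and at 26.9, 25.1, 21.7 and 26.5 after psilocybin, below every vehicle library by a narrow margin (-0.30, SE 0.110). Tagln, a contractile gene of smooth muscle, was at 24.6 to 53.4 CPM in vehicle and 32.5 to 75.0 after psilocybin, and Acta2, smooth muscle actin, at 27.7 ± 13.9 and 42.9 ± 22.3. Meningeal and fibroblast markers were higher in 10 of 16 (median 0.07). That median was 0.20 without psilocybin replicate 4 and -0.01 without psilocybin replicate 1 or without vehicle replicate 3. Their summed level ran from 1101 to 1459 CPM in vehicle and from 739 to 2062 after psilocybin. Fmod, a proteoglycan that binds collagen, was at 12.8 ± 3.73 and 19.2 ± 7.69 CPM, and Col6a1 at 74.6 ± 21.8 and 44.6 ± 12.1.

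Transcripts of blood were higher in 9 of 9 genes (median 0.34), and 0 reached an unadjusted p under 0.05. The adult globin genes are similar in sequence, so reads can be divided among them. Hbb was at 329, 641, 272 and 300 CPM in vehicle and at 501, 708, 321 and 416 after psilocybin. Vehicle replicate 2 lay among the psilocybin libraries, and without it the median of the list was 0.83. Without psilocybin replicate 2 it was 0.13, and without vehicle replicate 3 it was 0.16. Hba1 was at 746 ± 361 and 900 ± 269 CPM, Alas2, which starts haem synthesis in red cells, at 7.59 ± 4.11 and 10.0 ± 3.98, and the red cell anion exchanger Slc4a1 at 2.45 ± 1.16 and 3.36 ± 0.818.

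Markers of neighbouring tissues had no common direction. Striatal markers were higher in 8 of 15 (median 0.03), and Scn4b, a sodium channel subunit that striatum and fast-firing neurons express, was at 59.3, 67.4, 70.9 and 88.8 CPM in vehicle and at 53.0, 55.6, 31.1 and 29.5 after psilocybin. The groups did not overlap (-0.76, SE 0.251, unadjusted p = 0.00576). Olfactory bulb markers were lower in 6 of 8 (median -0.26). Of this list Pbx3, a transcription factor, was at 8.92 ± 1.70 and 6.29 ± 0.610 CPM (-0.50). Cdhr1, a cadherin of mitral cells, went the other way, at 6.56 ± 0.984 and 11.2 ± 5.78 CPM. Choroid plexus and ependymal markers were higher in 5 of 9 (median 0.08). With single libraries left out that median ran from -0.38 (psilocybin replicate 4) to 0.29 (vehicle replicate 4). Epcam, an epithelial adhesion molecule, was at 1.69, 1.78, 1.36 and 1.71 CPM in vehicle and at 0.284, 0.451, 0.278 and 0.612 after psilocybin. Its groups were far apart relative to their spread, at a level of few counts (-1.98, SE 0.532, unadjusted p = 0.000963).

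The extracellular matrix of perineuronal nets, which wrap fast-firing interneurons, was lower in most members. Of 19 genes 15 were below vehicle (median log2 fold change -0.28), and 4 of these reached an unadjusted p under 0.05, against 1.76% of all genes. Summed over the list the level was 913, 907, 909 and 927 CPM in vehicle and 780, 794, 767 and 851 after psilocybin. As sums, the vehicle libraries were nearly equal, and all psilocybin libraries lay below them. Among the 35 lists this was the only sum without overlap between the groups, and it was not tested. Of the 19 members, 0 lay below vehicle without overlap, where 1.17% of all genes did. By the median over members of log2 CPM (0.5 CPM added) minus its vehicle mean, the groups overlapped. Those medians were 0.18, -0.33, 0.001 and 0.04 in vehicle and -0.36, -0.17, 0.02 and -0.12 after psilocybin. Without both libraries of high PC1 the median log2 fold change was -0.30, with 16 of 19 lower. It was -0.20 without psilocybin replicate 1 alone, -0.18 without vehicle replicate 3 and -0.43 without vehicle replicate 2.

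Most of the gap in that sum came from Hapln4 (ENSRNOG00000049949, chromosome 16, 21081377 to 21089508), a link protein that ties lecticans to hyaluronan. Hapln4 was at 229, 240, 194 and 303 CPM in vehicle and at 218, 191, 133 and 136 after psilocybin. Psilocybin replicates 3 and 4 were lowest, and replicate 1 lay inside the vehicle range (-0.51, SE 0.189, unadjusted p = 0.0120). Has1, a hyaluronan synthase, was at 2.96 ± 0.667 and 1.29 ± 0.663 CPM (-1.18, SE 0.510), and the protease Adamts15 at 12.8 ± 2.86 and 8.72 ± 1.25 (-0.55, SE 0.250). Hapln1 was at 34.2 ± 2.24 and 30.6 ± 3.00 CPM and Ncan, a lectican, at 108 ± 32.1 and 89.5 ± 34.2. The defining lectican of the nets, Acan, was at 3.79 ± 0.479 and 3.66 ± 0.573 CPM, and Bcan, the most abundant one, at 319 ± 42.2 and 336 ± 24.2. At 1 mg/kg the summed level was 847 to 972 CPM.

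Potassium channel genes, which set firing and repolarization, were lower in 31 of 41 members (median -0.15). That median was -0.10 without psilocybin replicate 1, -0.07 without vehicle replicate 3 and -0.16 without both libraries of high PC1. In the lower direction 2 reached an unadjusted p under 0.05, against 1.76% of all genes. Kcnt1, a channel opened by sodium, was at 141 ± 17.1 CPM in vehicle and 120 ± 9.47 after psilocybin (-0.23, SE 0.0936), and Kcnk1, a leak channel, at 118 ± 4.76 and 104 ± 10.5 (-0.18, SE 0.0745). Kcnc1, a channel of fast-firing neurons, was at 146, 107, 131 and 141 CPM in vehicle and at 108, 115, 114 and 101 after psilocybin, where vehicle replicate 2 was the low library (-0.26, SE 0.156). Kcnn1, a channel opened by calcium, was at 29.7 ± 4.32 and 26.0 ± 1.83 CPM.

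Ribosomal and mitochondrial protein genes were above vehicle in most members, by amounts that depended on which libraries of high PC1 were kept. Cytosolic ribosomal protein genes were above vehicle in 77 of 88 members (median 0.24), mitochondrial ribosomal protein genes in 61 of 72 (0.12), and nuclear genes of the respiratory chain in 69 of 77 (0.15), against 47.8% of all genes. An unadjusted p under 0.05 was reached by 0 genes of the cytosolic list, 1 lower gene of the mitochondrial ribosome and 2 higher genes of the respiratory chain. The summed ribosomal level was 10371, 18483, 11561 and 13112 CPM in vehicle and 20980, 13949, 13034 and 14628 after psilocybin. Vehicle replicate 2 and psilocybin replicate 1, the libraries of high PC1, were the highest. Without psilocybin replicate 1 the medians were 0.06, -0.02 and -0.06, so that both mitochondrial lists turned below 0. Without vehicle replicate 2 they were 0.45, 0.26 and 0.34, and without both libraries 0.26, 0.12 and 0.14. These genes are short, with a median length of 586 bases for the ribosomal list and 711 for the respiratory list. After the length trend of each library was removed the medians were 0.18, 0.08 and 0.09.

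The abundant members showed the same high libraries. Rpl19 was at 186, 297, 210 and 225 CPM in vehicle and at 350, 249, 251 and 279 after psilocybin, and Rpl3 at 341, 483, 378 and 402 and at 535, 408, 414 and 471. In both genes, the library of high PC1 was the highest of its group. Rpl30 was at 41.7 ± 12.6 and 80.3 ± 35.0 CPM (0.94, SE 0.485). Copies of ribosomal protein genes are many, and Rpl32 has 2 records in the table, so such reads are uncertain. In the other direction, Mrpl51 of the mitochondrial ribosome was at 35.7 ± 4.18 and 30.2 ± 2.79 CPM (-0.24, SE 0.114), Ndufs1 of complex I at 158 ± 12.5 and 146 ± 5.62, and Uqcrc2 of complex III at 175 ± 22.6 and 158 ± 11.0. Atp5f1, with 2 records, was at 12.1 CPM in psilocybin replicate 4 and at 0.832 to 2.63 in the other 7 libraries. Transcripts of the mitochondrial genome were split 6 to 6 (median 0.00), but 11 of 12 were lower without psilocybin replicate 1 (-0.16) and 9 of 12 higher without vehicle replicate 2 (0.18), with Mt-nd4 at 526 ± 97.5 and 426 ± 163 CPM.

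**Figure D4:**
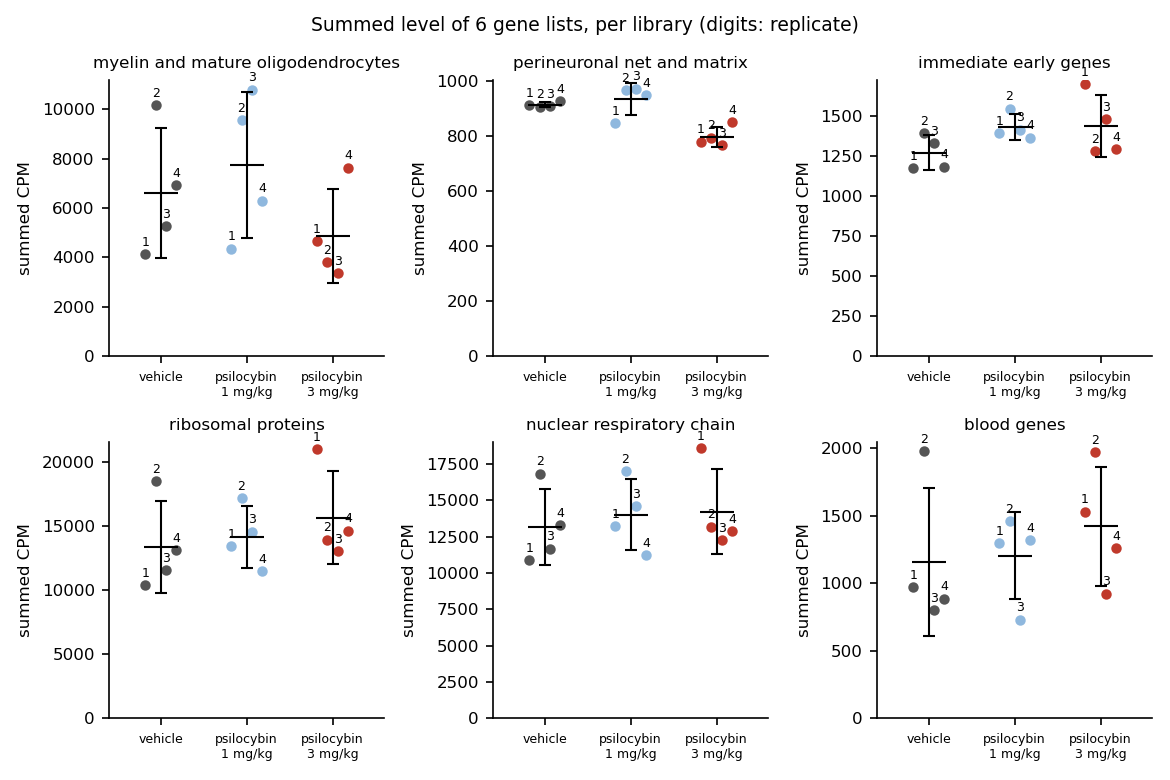
Summed CPM of 6 gene lists in each library of vehicle, psilocybin at 1 mg/kg and psilocybin at 3 mg/kg (digits, replicate number, bars, mean ± SD, n = 4). As a sum, psilocybin at 3 mg/kg lies below vehicle without overlap only for perineuronal net and matrix genes (767 to 851 against 907 to 927). Among all 35 lists it is the only sum without overlap. Of the 19 members, 0 do so singly, where 1.17% of all genes do. Replicate 1 of psilocybin at 3 mg/kg is highest for ribosomal (20980) and respiratory chain genes (18604).

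Stress, hormone and clock genes had list medians near 0. Heat shock and endoplasmic reticulum chaperones were higher in 15 of 27 (median 0.02), with Pdia6, a disulfide isomerase, at 163 ± 17.3 and 186 ± 10.3 CPM (0.20, SE 0.0936, unadjusted p = 0.0475). Glucocorticoid response genes were lower in 12 of 22 (median -0.07). Sgk1, a kinase that glucocorticoids induce, was at 36.0 ± 4.04 and 30.5 ± 3.73 CPM, and Errfi1, an inhibitor of EGF receptors, at 25.7 ± 4.04 and 21.2 ± 3.11. Circadian clock genes were lower in 14 of 21 (median -0.03). The activators Arntl and Npas2 were at 46.3 ± 4.45 and 40.5 ± 4.11 CPM and at 139 ± 23.4 and 120 ± 4.52.

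Innate immune and interferon genes were above vehicle in 20 of 26 members (median 0.09), with 1 higher and 2 lower at an unadjusted p under 0.05. Mx1, an antiviral GTPase, was at 0.811, 0.924, 0.929 and 0.343 CPM in vehicle and at 1.56, 1.92, 0.763 and 1.70 after psilocybin (0.98, SE 0.448). Psilocybin replicate 3 lay within the vehicle range. Isg15, a ubiquitin-like protein of the same response, was at 1.90 ± 0.355 and 3.37 ± 1.31 CPM. Ifit1 was at 0.879 and 2.05 CPM in vehicle replicates 1 and 2, listed at 0 in the other vehicle libraries, and at 0.136 CPM in 1 psilocybin library and 0 in the rest. Of 35 genes of Rag GTPases and mTORC1, the kinase complex that couples growth to amino acids, 20 were lower (median -0.03). RragB was at 1.15, 2.38, 1.49 and 1.37 CPM in vehicle and at 6.46, 2.14, 9.16 and 7.75 after psilocybin. Replicate 2 stayed in the vehicle range, and the symbol has 2 records, so its reads are uncertain (1.99, SE 0.481, unadjusted p = 0.000334). Eif4ebp1, which mTORC1 phosphorylates to release translation, was at 8.71 ± 2.10 and 11.5 ± 4.04 CPM.

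**Figure D5:**
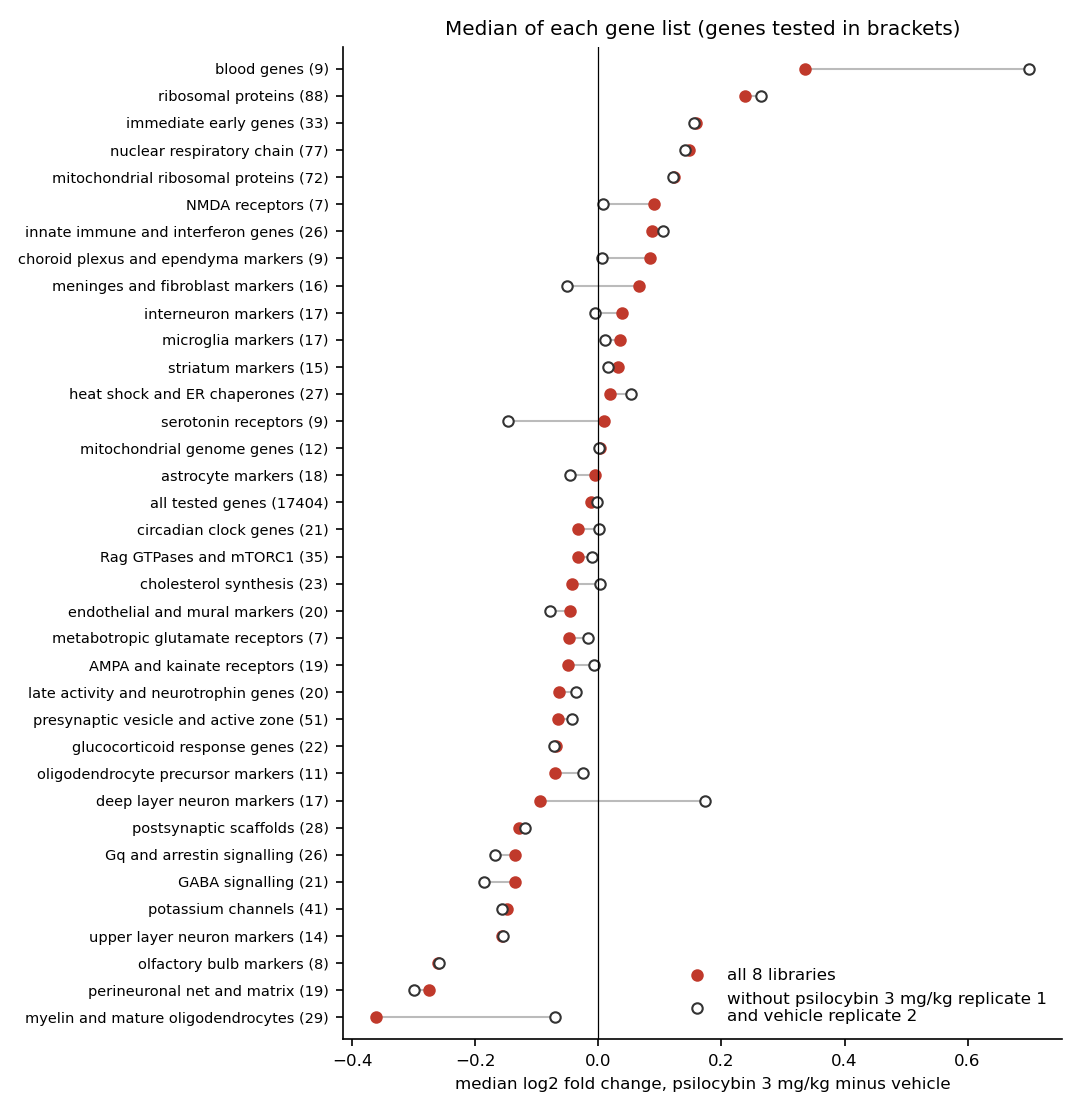
Median log2 fold change of each gene list, psilocybin at 3 mg/kg minus vehicle, with all 8 libraries (filled) and without psilocybin replicate 1 and vehicle replicate 2 (open), and the number of genes tested in brackets. The median of all 17404 genes is near 0, myelin genes move from -0.36 to -0.07 and blood genes from 0.34 to 0.70, while perineuronal net genes are at -0.28 and -0.30.

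The doses were also compared with each other. Against 1 mg/kg the higher dose gave 0 edgeR calls (0.0%) and 564 genes with an unadjusted p below 0.05 (3.24%), 270 higher (1.55%) and 294 lower (1.69%). This comparison shares the 4 libraries of the higher dose with the one against vehicle, so the values are set side by side only, and those libraries also chose the leading genes. Palmd was at 13.7 ± 0.538 CPM at 1 mg/kg, below vehicle and below 3 mg/kg (3 minus 1 mg/kg 0.57, SE 0.104, edgeR adjusted p = 0.109). Syt12 was at 87.8 ± 6.46 CPM at 1 mg/kg (-0.43, SE 0.0801, edgeR adjusted p = 0.109). C2cd4c was at 33.8 ± 5.56 CPM at 1 mg/kg, near vehicle (3 minus 1 mg/kg 0.48, SE 0.127), and Hpcal1 at 42.4 ± 3.32 (0.77, SE 0.237). Klhl20, Dennd3 and Cd38 were at 20.1 ± 2.70, 11.7 ± 2.43 and 5.27 ± 1.03 CPM at 1 mg/kg, closer to the higher dose than to vehicle. Hapln4 was at 195, 355, 324 and 243 CPM at 1 mg/kg (3 minus 1 mg/kg -0.72). DESeq2 called 4 genes between the doses, Palmd, Syt12, Nefl and Mrpl36.

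Ketanserin blocks the serotonin 2A receptor, and the group given it before psilocybin was compared with psilocybin alone. The 4 psilocybin libraries are the ones by which the leading genes were chosen, so for those genes the values are set side by side with no test. Against psilocybin alone at 3 mg/kg, edgeR called 0 genes (0.0%), while 999 had an unadjusted p below 0.05 (5.74%), of which 595 were higher (3.42%) and 404 lower (2.32%). Without replicate 4 of the group given both drugs, which lay at -133 on PC1, these were 199 and 174. DESeq2 called 1 gene, LOC100911575. With both drugs C2cd4c was at 36.8, 41.0, 35.7 and 29.9 CPM, all below the psilocybin libraries (both minus psilocybin -0.40). Syt12 was at 75.1, 78.9, 78.6 and 72.0 CPM, all above them (0.23). Pamr1 was at 48.3 ± 5.41 CPM (0.29) and Palmd at 16.6 ± 2.01 (-0.30). Hpcal1 was at 86.2 CPM in replicate 2 and at 25.4 to 42.1 in the others, and Il17ra at 34.8 ± 2.44 (0.22). With ketanserin alone at 3 mg/kg, C2cd4c was at 43.3 ± 8.04 CPM and Syt12 at 85.8 ± 5.38.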

How the data were processed

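Libraries were made from poly-A RNA with a dUTP step that marks the strand, per the labels' protocols. The authors deposited raw counts of reads for 36387 annotated genes and assembled transcripts, and FPKM values per gene, which served here only to compare levels between genes. The build was rn6 and the software included featureCounts 1.5.0-p3, HISAT2 2.0.5 and StringTie 1.3.3b, per the submitters' processing notes. The sources used here do not give the counter's strand setting, so reads of overlapping genes cannot be told apart. The 3842 transcripts with no gene name held 2.17 to 2.39% of the counts of the 8 libraries. They stayed in totals and tests and were not named.

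The test was edgeR 4.0.16 in R 4.3.3 (filterByExpr, TMM factors, 1 coefficient per group over all 28 libraries, robust quasi-likelihood F test, two-sided, Benjamini-Hochberg adjustment over 17404 genes, threshold 0.05). CPM are counts relative to the TMM-scaled library size. Alternatives used DESeq2 1.42.0, limma 3.58.1 voom, other filters, a gene-length offset, a fit of 2 groups and each library left out. The fit was tested on simulated data. No library was a copy of another (chi-square per gene 9.90 to 88.9 over 28 pairs).

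Genes were named by rule. It took the 12 higher and 12 lower genes with the smallest p among those with a symbol, at least 2 CPM and no overlap, the 3 largest fold changes each way at 1 CPM or more, and up to 4 members per list by p. Htr1a, Htr2a and Htr2c were named as targets. Other list members named, Nefl, Mrpl36 and LOC100911575 were chosen after their values were seen. The groups and the 35 gene lists were chosen with earlier results of these data known. No set test was run. Promoter sequences are RefSeq's on GRCr8, while gene coordinates come from the deposited rn6 table. Some members that the rule names are not reported here.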

Additional observations from a re-analysis of the deposited data

Results flagged for a closer look

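Across the 4 libraries of each group, 322 sets of values were checked for a library far from the other 3. For independent sets, chance would give about 1 in 20, or 16.1. These sets share genes, and many genes were chosen by these same libraries, so the count tests nothing. There were 26 such outlying values. Several were in vehicle replicate 2, which was high for Cacng8 (156 CPM against 107 to 115), Crym (341 against 192 to 207), Calb2 (21.5 against 15.4 to 16.1), Hbb (641 against 272 to 329), Hba1 (1283 against 512 to 618), and the sums of deep layer markers (1279 against 983 to 1016), blood genes (1974 against 800 to 973) and mTORC1 genes (1673 against 1576 to 1585). It was low for Tshz2 (9.43 against 54.2 to 62.8), Gpr17 (8.51 against 14.0 to 14.6) and Vom2r44 (0.990 against 2.88 to 3.22). Vehicle replicate 4 was high for Lamp5 (343 against 233 to 242).

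Psilocybin replicate 1 stood apart in the sums of interneuron markers (3165 CPM against 2113 to 2211), mitochondrial ribosomal proteins (3971 against 2646 to 2837), respiratory chain genes (18604 against 12243 to 13189) and mitochondrial genome genes (93996 against 59756 to 65316). It was high for Itpr3 (13.2 against 10.0 to 10.3), R3hdm1 (151 against 143 to 144) and Vom2r44 (0.568 against 0 to 0.0694), and low for Kalrn (171 against 295 to 318) and Gabbr2 (269 against 370 to 385). Psilocybin replicate 2 was high for Ndufa1 (52.6 against 0 to 0.994), and replicate 4 for Grcc10 (75.3 against 0.0694 to 0.994), Atp5f1 (12.1 against 0.832 to 2.63), Enpp2 (48.6 against 39.3 to 40.3) and Ifit1 (0.136 against 0 in the others).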

How the results depend on the processing

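Against vehicle, the call count of 0 was 1 in a fit of the 2 groups alone, where Fam111a passed. The 216 higher genes at an unadjusted p under 0.05 were 387 with no filter on low counts, 327 without replicate 4 of the group given both drugs and 145 to 811 when each library was left out, and the 306 lower genes were 221 to 608. The highest counts, 811 and 608, came without vehicle replicate 2. Between the doses DESeq2 called 4 genes. For both drugs against psilocybin alone DESeq2 called 1, and leaving out psilocybin replicate 3 gave 1, Grcc10 (edgeR log2 fold change -6.92, adjusted p = 0.0470). There the 595 higher genes were 199 without replicate 4 of the group given both drugs and up to 735 without psilocybin replicate 4, and the 404 lower genes were 174 without replicate 4 of the group given both drugs, 229 without psilocybin replicate 1 and up to 522 without psilocybin replicate 4. Of 122 named genes under 17 settings, 4 changed sign. The log2 fold change of Htr2a was -0.014 without the libraries of high PC1, and -0.050 to 0.078 when each library was left out. That of Htr5a was -0.527 to 0.011, with 0.011 without psilocybin replicate 1, that of Dlgap3 -0.0092 without psilocybin replicate 1 to 0.38 without vehicle replicate 2, and that of Grin2a -1.07 to 0.072, with 0.072 without vehicle replicate 3. The cause was not tested. Leaving out the libraries of high PC1 together was chosen after seeing the data. No paired analysis was possible because the labels number no replicates. With 4 libraries a group, the unadjusted 95% interval of a typical gene reached 0.43 to either side on the log2 scale, and the adjusted test needs larger differences.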

Other observations

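The genes that DESeq2 called between the doses include Nefl, the light neurofilament of large axons. It was at 576, 567, 550 and 574 CPM in vehicle, at 511, 484, 444 and 458 after psilocybin at 3 mg/kg, and at 576, 736, 713 and 603 at 1 mg/kg. The higher dose lay below all libraries of vehicle and of 1 mg/kg. The log2 fold change was -0.26 (SE 0.0924) against vehicle and -0.47 against 1 mg/kg (edgeR adjusted p = 0.169). With both drugs at 3 mg/kg Nefl was at 564, 447, 577 and 578 CPM, so that replicate 2 of that group lay among the psilocybin libraries.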
